A study of Mus musculus with 12 samples.

Results

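The genes described here encode chromatin remodelers and histone modifiers, read through antibody-enriched peaks of 5-methylcytosine (m5C) in the RNA of the mouse hippocampus. They are the protein-coding genes on chromosomes 1 to 19 of the mm10 mouse genome whose symbol begins with Kmt, Kdm, Setd, Hdac, Smarc or Arid, or with Chd or Kat followed by a digit. This rule took 82 of 20665 protein-coding genes and used no measured value, although it was chosen with earlier results of these data known. The 8 families held 8 Kmt, 10 Setd, 15 Kdm, 8 Kat, 9 Hdac, 10 Chd, 12 Smarc and 10 Arid genes. The samples were hippocampi of female wild-type C57BL/6 mice at 18 months (aged, labelled as natural aging) and at 3 months (young), with no other allele or agent named. RNA was fragmented and captured with an m5C antibody, and each of the 3 captured libraries of an age had a library of uncaptured RNA as its input, which made 12 libraries. The authors deposited 1 list of peaks for each captured library with its input, so there were 3 aged and 3 young lists. Nothing in the labels tells whether the 3 samples of an age were separate animals, so a p-value here measures the spread between samples, which may be technical.

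Chromatin is opened, closed and marked by these proteins. Histone methyltransferases (Kmt and many Setd genes) and acetyltransferases (Kat) write marks on histone tails, and demethylases (Kdm) and deacetylases (Hdac) remove them. The ATPases and partner subunits of the Chd and Smarc families, with some of the Arid proteins, slide or eject nucleosomes. In neurons, subunit exchange within the BAF remodeling complex accompanies maturation, and mutations in many of these genes cause neurodevelopmental disorders in humans. The cytosine mark in messenger RNA is deposited by NSUN-family enzymes, among others, and is bound by reader proteins such as ALYREF and YBX1.

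A peak depends on the abundance of a transcript as well as on its modification, and does not resolve the modified base. In bulk tissue, fewer cells of a type and less RNA per cell cannot be told apart. How many reads each list rests on is unknown, so no counting interval can be given. The lists differed in length, with 15189, 14008 and 14294 peaks in aged lists and 9887, 8549 and 10392 in young lists, a ratio of means of 1.51. Several counts below were therefore also taken with every list reduced to its 8549 highest-scoring peaks. Counts given without an equal-length value, those of markers included, rest on the lists as deposited. Defining markers of neurons had peaks in every list, 6 of 6 genes each, while markers of inhibitory neurons had peaks in 2, 3 and 2 of 4 genes in aged lists and in 0 of 4 genes in each young list. Endothelial markers had peaks in 2 of 4 genes in each aged list and in 1 of 4 in each young list. Astrocyte markers had peaks in 6, 6 and 5 of 6 genes in aged lists and in 5, 3 and 5 in young lists. Microglial markers had a peak in 1 of 6 genes in every list. Oligodendrocyte markers had peaks in 3, 3 and 4 of 6 genes in aged lists, against 4, 2 and 3 in young lists. Markers of granule and pyramidal cells had them in 3, 2 and 3 of 4 genes in aged lists, against 2, 2 and 3. Both overlapped between the ages. Choroid plexus markers had a peak in 1 of 4 genes in young list 3 and in no other list. The part of cell composition in the results was not tested.

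The chromatin genes carried more peaks in aged than in young hippocampus. Their spans held 262, 247 and 255 same-strand peaks in aged lists, against 188, 175 and 193 in young lists. Every aged list was above every young list, with means of 254.7 ± 7.51 in aged and 185.3 ± 9.29 in young lists (SD, n = 3 each), which is 1.37 times as many (two-sided exact permutation test, p = 0.1, the lowest value open to 3 lists against 3, and 0.14 after Benjamini-Hochberg adjustment over 7 comparisons). No comparison of this design could pass 0.05. Peaks were found in 62, 63 and 63 of the 82 genes in aged lists, against 60, 55 and 58 in young lists (exact permutation p = 0.1, adjusted 0.14). As a share of its whole list, the set took 1.72%, 1.76% and 1.78% of the peaks in aged lists, against 1.9%, 2.05% and 1.86% in young lists, so every aged share was below every young share (exact permutation p = 0.1, adjusted 0.14).

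With lists of equal length this excess was small. The genes then held 184, 173 and 177 peaks in aged lists, against 175, 175 and 168 in young lists, which overlapped (exact permutation p = 0.4). The share of the list was then 2.15%, 2.02% and 2.07% in aged lists, against 2.05%, 2.05% and 1.97% in young lists, which also overlapped. The number of genes with a peak was 56, 50 and 52 in aged lists, against 57, 55 and 51 in young lists, with a lower mean in aged lists.

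**Figure D1:**
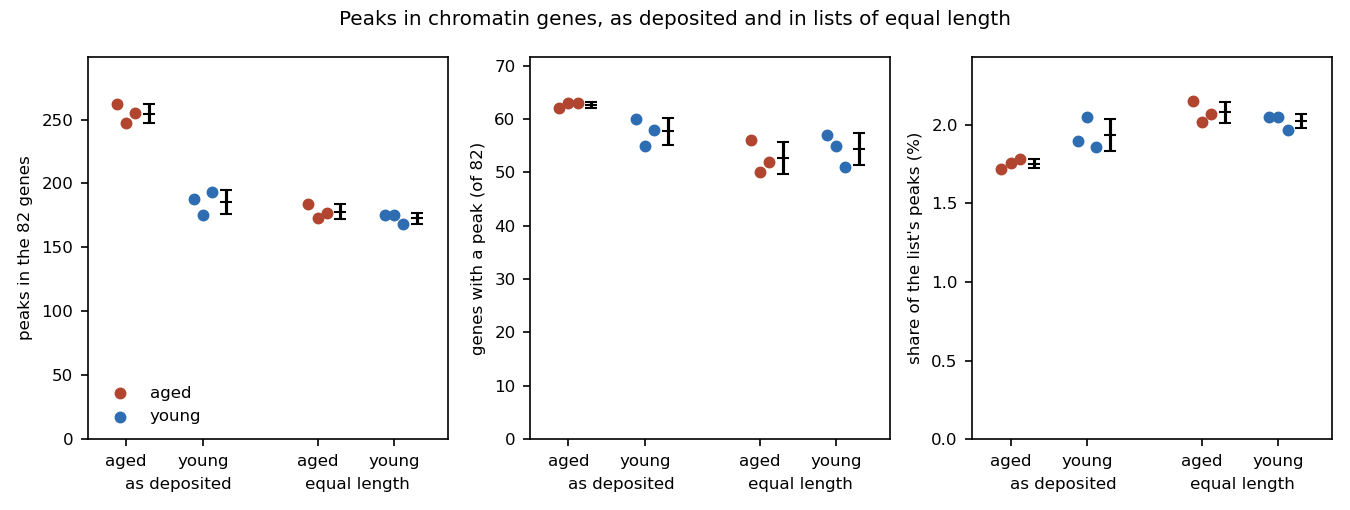
Peaks in the 82 chromatin genes (left), number of those genes with a peak (middle) and share of each list's peaks in percent (right), for lists as deposited and at an equal length of 8549 peaks. Each point is 1 list, and the bar beside each group is the mean with its SD over 3 lists. As deposited, every aged list lies above every young list in the first 2 panels and below it in the last, while at equal length the ages overlap in all 3 panels.

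Most of these genes carried m5C peaks at both ages. At least 1 list had a peak in 70 of the 82 genes (85.4%), against 43.6% of all 20665 genes, and 49 of these 70 (70%) had a peak in all 6 lists, against 31.6% of all genes with a peak. Chromatin genes are long, with a median span of 48 kb against 17.5 kb for all genes. Within spans of 20 to 50 kb, 86.2% of 29 chromatin genes had a peak, against 52.6% of all genes. Within spans of 50 to 100 kb all 22 chromatin genes had one, against 64.8% of all genes. Transcript lengths were not used here, so peak numbers are per gene and are not divided by length. The 12 genes without a peak in any list were Arid3b, Arid3c, Arid5a, Hdac1, Hdac10, Kat2b, Kat8, Kdm1b, Kdm4d, Kmt5c, Setd6 and Smarcal1.

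In the lists as deposited, differences between the ages ran mainly 1 way. The mean peak number was higher in aged lists for 56 of the 70 genes, equal for 3 and lower for 11, that is 80% higher and 15.7% lower, against 65.4% and 19.3% of all 9020 genes with a peak. The median difference was 1 peak per gene, against 0.333 over all genes with a peak. Chromatin genes also carried more peaks, with a median of the mean peak number of 2.17, against 0.667 over all genes with a peak. These directions were not tallied at equal list length and are not carried over to it. There the set held a mean of 178 peaks in aged and 172.7 in young lists, with overlap. In 17 genes (24.3%) every aged list had more peaks than every young list, against a background of 12% of all genes with a peak. No chromatin gene had more peaks in every young list, where the background was 0.887%. Such separation was more frequent in genes with many peaks. Among genes with 18 or more peaks over the 6 lists, 10 of 30 chromatin genes were separated (33.3%), against 35.6% of all genes, and among those with 6 to 17 peaks 3 of 24 were (12.5%), against 14.1%. Among genes with 1 to 5 peaks 4 of 16 were separated (25%), against 6.53% of all genes. These 4 were Arid2, Kdm4b, Kdm8 and Smarcad1, with no peak in any young list. The shares of this bin are not like for like, because separation needs a peak in all 3 lists of an age. Of all genes, 1274 had a peak in 1 aged list alone and 764 in 1 young list alone, against 1 chromatin gene each. At equal list length 2 of 64 chromatin genes with a peak were separated (3.12%), Kdm5a and Smarca4, against 239 of 6879 of all genes (3.47%). Separation named for single genes below refers to the lists as deposited unless equal length is stated.

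**Figure D2:**
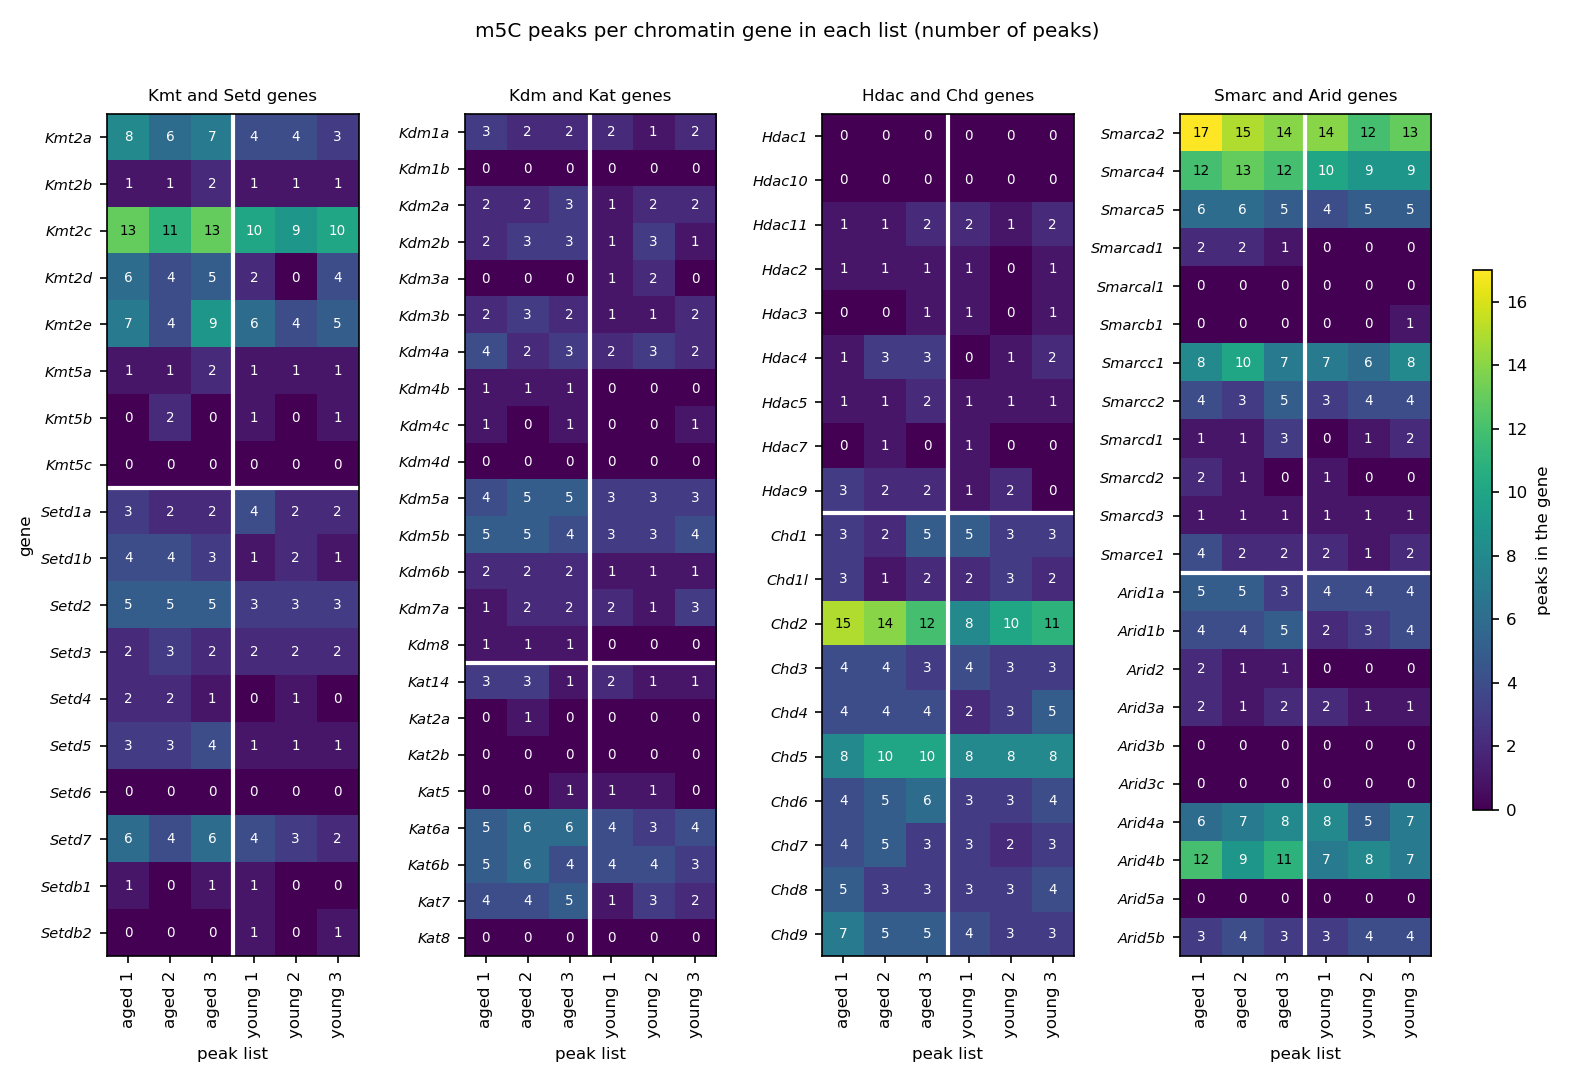
Number of m5C peaks in each of the 82 chromatin genes (rows, by family) in each of the 6 lists (columns, aged left of young), printed in each cell and shown by colour from 0 to 17. Smarca2 has the highest mean number, and Arid2, Kdm4b, Kdm8 and Smarcad1 have peaks in every aged list and 0 in every young list.

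In the lists as deposited, histone methyltransferase genes held more peaks in every aged list than in every young list. The 8 Kmt genes held 36, 29 and 38 peaks in aged lists, against 25, 19 and 25 in young lists, a ratio of 1.49. The 10 Setd genes held 26, 23 and 24 peaks in aged lists, against 17, 14 and 12 in young lists, a ratio of 1.7, the highest of the 8 families. In both families the ages did not overlap (exact permutation p = 0.1 each, 0.114 after adjustment over 8 families). Whether the ratios differ between families was not tested. Over the whole lists the ratio was 1.51. At equal list length the Kmt genes held 27, 23 and 25 peaks in aged lists, against 24, 19 and 21 in young lists. The Setd genes then held 20, 14 and 14 in aged lists, against 14, 14 and 10 in young lists. Neither family was then separated (exact permutation p = 0.2 for Kmt and 0.6 for Setd).

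Kmt2a, which methylates histone H3 at active promoters, had 8, 6 and 7 peaks in aged lists, against 4, 4 and 3 in young lists. Kmt2c, an enhancer-directed relative, had 13, 11 and 13 peaks in aged lists, against 10, 9 and 10 in young lists. Both were separated by age without overlap in the lists as deposited. At equal list length neither was, with 4 peaks in each aged list, against 4, 4 and 3 in young lists for Kmt2a. Kmt2c then had 11, 10 and 9 in aged lists, against 10, 9 and 8 in young lists. Kmt2d, the closest relative of Kmt2c, had 6, 4 and 5 peaks in aged lists, against 2, 0 and 4 in young lists, which touched at 4. Kmt2e, a family member with no known methyltransferase activity, had 7, 4 and 9 peaks in aged lists, against 6, 4 and 5 in young lists, and overlapped.

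Setd2, the enzyme that trimethylates histone H3 along transcribed genes, had 5 peaks in each aged list, against 3 in each young list. Setd5, a SET-domain gene linked to intellectual disability in humans, had 3, 3 and 4 peaks in aged lists, against 1 in each young list. Setd1b, a promoter methyltransferase, had 4, 4 and 3 peaks in aged lists, against 1, 2 and 1 in young lists. All 3 were separated by age in the lists as deposited, and none at equal list length. Setd2 then had 3, 3 and 4 peaks in aged lists, against 3 in each young list. Setd5 had 2, 1 and 1 in aged lists, against 1 in each young list. Setd1b had 1, 2 and 0 in aged lists, against 1, 2 and 1 in young lists. Setd1a, the paralog of Setd1b, had 3, 2 and 2 peaks in aged lists as deposited, against 4, 2 and 2 in young lists, and was not separated. Setd7, a methyltransferase with histone and other substrates, had 6, 4 and 6 peaks in aged lists, against 4, 3 and 2 in young lists, which touched at 4.

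Overlapping same-strand peaks of the 6 lists were merged into regions, and 3 methyltransferase genes had a region at an annotated transcript start. Their start windows are shown because they place the enriched RNA on the sequence, and because only the Setd7 region was restricted by age. Each window is RefSeq sequence of GRCm38.p6 (mm10), 5′ to 3′ on the gene's strand, from 250 bases before the start to 50 bases of the transcript. Capitals mark the bases inside the merged region. The Setd7 window is chr3:51560774-51561073 on the minus strand, the Kmt2c window chr5:25498734-25499033 on the minus strand and the Setd2 window chr9:110532347-110532646 on the plus strand.
Setd7: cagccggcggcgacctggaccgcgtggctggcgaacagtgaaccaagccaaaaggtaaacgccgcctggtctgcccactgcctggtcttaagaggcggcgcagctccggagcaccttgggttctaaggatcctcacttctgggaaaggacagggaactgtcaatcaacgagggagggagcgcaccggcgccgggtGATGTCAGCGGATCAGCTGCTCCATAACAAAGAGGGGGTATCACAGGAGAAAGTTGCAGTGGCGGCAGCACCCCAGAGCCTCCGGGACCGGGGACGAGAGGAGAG
Kmt2c: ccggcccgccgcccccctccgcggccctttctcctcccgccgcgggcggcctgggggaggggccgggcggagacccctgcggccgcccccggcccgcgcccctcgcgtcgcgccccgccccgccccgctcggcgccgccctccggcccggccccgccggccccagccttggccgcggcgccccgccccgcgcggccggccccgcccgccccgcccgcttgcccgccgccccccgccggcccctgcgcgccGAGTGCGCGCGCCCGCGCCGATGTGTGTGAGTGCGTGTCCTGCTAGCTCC
Setd2: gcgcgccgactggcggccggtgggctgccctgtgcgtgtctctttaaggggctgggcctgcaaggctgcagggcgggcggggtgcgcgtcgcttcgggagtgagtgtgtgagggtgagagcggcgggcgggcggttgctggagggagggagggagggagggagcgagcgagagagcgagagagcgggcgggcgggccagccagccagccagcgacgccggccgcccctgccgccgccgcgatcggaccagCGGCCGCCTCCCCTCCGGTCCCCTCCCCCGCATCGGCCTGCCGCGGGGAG
The Setd7 region covered 105 bases of the window, 50 of them downstream of the start, and scored 292.9, 448.8 and 235.7 in aged lists, with no peak in any young list. The Kmt2c and Setd2 regions began exactly at the annotated start, covered 50 bases of the window each, and had a peak in all 6 lists. Of 12 chromatin gene regions over an annotated start 7 began exactly there (58.3%), against 1054 of 1608 regions of all genes (65.5%). The GC content was 62.7% for Setd7, 88.0% for Kmt2c and 77.3% for Setd2, with 21, 56 and 38 CpG dinucleotides, against medians of 56.3% and 13 over 21263 windows of protein-coding genes. Over 86 windows of the chromatin genes the medians were 64.2% and 25.5, so Setd7 lay below the middle of its own set in both. The letters CTCCA, a motif described for the methyltransferase NSUN6, occurred on the transcript strand in the covered part of the Setd7 window. There they lay upstream of the annotated start, and so outside the annotated transcript. Over whole windows, which are longer than the covered part, the same letters occur on that strand in 39.8% of all windows and on the other strand in 40.9%. In the Setd2 window they were found on the other strand alone, and in the Kmt2c window on neither. The letters CNGGG, described for NSUN2 targets, occurred on both strands of all 3 windows, and in 83.1% of all windows on the transcript strand and 82.1% on the other. A CTCCA can share its final CA with the start of a CNGGG, and the matches of each were counted separately.

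Demethylase genes held 28, 28 and 29 peaks in aged lists, against 17, 20 and 21 in young lists, a ratio of 1.47 without overlap (exact permutation p = 0.1, adjusted 0.114). At equal list length they held 18, 20 and 20 in aged lists, against 17, 20 and 19 in young lists, which overlapped (exact permutation p = 0.7). As deposited, Kdm5a, which removes methyl groups from histone H3 at promoters, had 4, 5 and 5 peaks in aged lists, against 3 in each young list. Its paralog Kdm5b had 5, 5 and 4 peaks in aged lists, against 3, 3 and 4 in young lists, which touched at 4. Kdm6b, the demethylase that lifts a Polycomb mark, had 2 peaks in each aged list, against 1 in each young list.

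Kdm4b, a demethylase of heterochromatin marks, and Kdm8, a JmjC-domain gene, each had 1 peak in every aged list, against 0 in every young list. Kdm3a, a demethylase of repressive marks, ran the other way, with 0 peaks in each aged list, against 1, 2 and 0 in young lists. Setdb2 and Smarcb1 were the other genes with peaks in young lists alone, in 2 young lists and in 1. Over the whole set 4 genes (5.71% of 70) were marked in every aged list and in no young list, against a background of 4.26%. The opposite pattern, a peak in every young list alone, was found in 0 chromatin genes, where the background was 0.743%. At equal list length none of the 4 kept this pattern, against 94 of 6879 genes (1.37%) that showed it.

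The acetyltransferase genes held 17, 20 and 17 peaks in aged lists, against 12, 12 and 10 in young lists, a ratio of 1.59 without overlap (exact permutation p = 0.1, adjusted 0.114). Kat6a, a MYST-family enzyme, had 5, 6 and 6 peaks in aged lists, against 4, 3 and 4 in young lists. Kat7, the HBO1 enzyme of the same family, had 4, 4 and 5 peaks in aged lists, against 1, 3 and 2 in young lists. Both were separated by age in the lists as deposited, and neither at equal list length. Kat6a then had 4 peaks in each aged list, against 4, 3 and 4 in young lists, and Kat7 2, 1 and 1 in aged lists, against 1, 3 and 2. As deposited, Kat6b overlapped at 4, with 5, 6 and 4 peaks in aged lists, against 4, 4 and 3 in young lists. Kat2a, the GCN5 enzyme, had a single peak in 1 aged list, and its paralog Kat2b had none in any list.

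Deacetylase genes were sparsely marked and did not separate by age. The 9 Hdac genes held 7, 9 and 11 peaks in aged lists, against 7, 5 and 7 in young lists (exact permutation p = 0.3, adjusted 0.3), and 2 of them, Hdac5 and Hdac11, had a peak in all 6 lists. Hdac5, a class IIa enzyme regulated by neuronal activity, had 1, 1 and 2 peaks in aged lists, against 1 in each young list. Hdac4, of the same class, had 1, 3 and 3 peaks in aged lists, against 0, 1 and 2 in young lists, and Hdac9 had 3, 2 and 2 in aged lists, against 1, 2 and 0 in young lists. Hdac2, a class I enzyme studied for its role in memory, had 1 peak in each aged list, against 1, 0 and 1 in young lists, and Hdac1 had none. At equal list length the Hdac genes held 3, 2 and 3 peaks in aged lists, against 4, 5 and 5 in young lists, so the direction turned (exact permutation p = 0.1). The mean also turned in Kat, with 12, 9 and 10 peaks in aged lists, against 12, 12 and 10 in young lists, and in Chd, with 39, 40 and 40 in aged lists, against 41, 41 and 40 in young lists, both with overlap. The other 5 families kept a higher mean in aged lists, and their ages overlapped too.

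**Figure D3:**
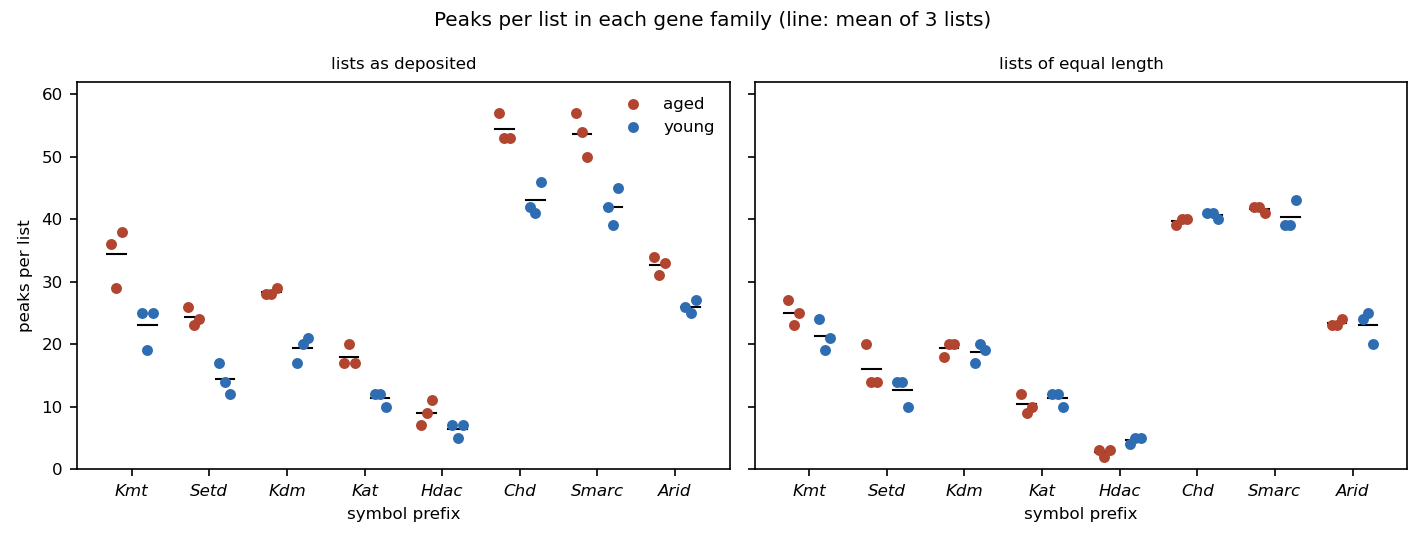
Peaks per list in each of the 8 gene families, in lists as deposited (left) and of equal length (right). Each point is 1 list and each line the mean of 3 lists of an age, aged left of young. As deposited the ages do not overlap in 7 families and touch at 7 peaks in Hdac, while at equal length the Hdac genes have fewer peaks in every aged list.

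The Chd and Smarc genes held the most peaks, and in the lists as deposited the Chd, Smarc and Arid families had the lowest ratios of the 8. At equal list length the lowest were those of Hdac and Kat, while the means of Smarc (41.7 in aged and 40.3 in young lists) and Arid (23.3 in aged and 23 in young lists) stayed higher in aged lists. The Chd genes held 57, 53 and 53 peaks in aged lists, against 42, 41 and 46 in young lists, a ratio of 1.26. The Smarc genes held 57, 54 and 50 peaks in aged lists, against 42, 39 and 45 in young lists, a ratio of 1.28, and the Arid genes 34, 31 and 33 in aged lists, against 26, 25 and 27 in young lists, a ratio of 1.26. None of the 3 overlapped between ages (exact permutation p = 0.1 each, adjusted 0.114). All 10 Chd genes had a peak in all 6 lists, against 7 of 12 Smarc and 6 of 10 Arid genes.

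Smarca2 and Smarca4 encode BRM and BRG1, the alternative ATPases of the BAF complex. Smarca2 had the highest mean number of all 82 genes, with 17, 15 and 14 peaks in aged lists, against 14, 12 and 13 in young lists, which touched at 14. Smarca4 had 12, 13 and 12 peaks in aged lists, against 10, 9 and 9 in young lists, without overlap. Smarcc1, a scaffold subunit, had 8, 10 and 7 peaks in aged lists, against 7, 6 and 8 in young lists, and overlapped. Smarcad1, a remodeler acting at replication and repair sites, had 2, 2 and 1 peaks in aged lists, against 0 in each young list.

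Arid2, which defines the PBAF form of the complex, had 2, 1 and 1 peaks in aged lists, against 0 in each young list. Its peaks lay in 2 regions, chr15:96362492-96362701 and chr15:96369920-96372762, each present in 2 aged lists, so no single region of Arid2 was shared by the 3 aged lists. Arid4b, a subunit of the SIN3 corepressor, had 12, 9 and 11 peaks in aged lists, against 7, 8 and 7 in young lists, while its paralog Arid4a overlapped with 6, 7 and 8 in aged lists, against 8, 5 and 7 in young lists. Arid1a and Arid1b, alternative subunits of BAF, overlapped too. Arid1a had 5, 5 and 3 peaks in aged lists, against 4 in each young list, and Arid1b 4, 4 and 5 in aged lists, against 2, 3 and 4 in young lists.

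Chd2, a remodeler linked to epilepsy in humans, had 15, 14 and 12 peaks in aged lists, against 8, 10 and 11 in young lists, the largest difference in mean peak number of the set. Chd9, a less studied relative, had 7, 5 and 5 peaks in aged lists, against 4, 3 and 3 in young lists. Both were separated by age in the lists as deposited, and neither at equal list length. Chd2 then had 10, 10 and 11 peaks in aged lists, against 8, 10 and 9 in young lists. Chd9 had 3 in each aged list, against 4, 3 and 2. As deposited, Chd5, the neuronal ATPase of the NuRD complex, had 8, 10 and 10 peaks in aged lists, against 8 in each young list. Chd4, the widely expressed one, had 4 in each aged list, against 2, 3 and 5 in young lists. The first Chd5 region began at the annotated start and lay in all 6 lists. It scored 3100 in each aged list, and 2759.2, 3050.5 and 2897.0 in young lists. Many peaks share the score 3100, and 21, 19 and 20 peaks of the set in aged lists and 10, 6 and 9 in young lists reached it or more. Raw scores are therefore not compared between the ages. The Chd5 start window, chr4:152338401-152338700 on the plus strand of GRCm38.p6 (RefSeq), is shown because its region scored highest of those over an annotated start. Capitals mark the bases inside the region.
Chd5: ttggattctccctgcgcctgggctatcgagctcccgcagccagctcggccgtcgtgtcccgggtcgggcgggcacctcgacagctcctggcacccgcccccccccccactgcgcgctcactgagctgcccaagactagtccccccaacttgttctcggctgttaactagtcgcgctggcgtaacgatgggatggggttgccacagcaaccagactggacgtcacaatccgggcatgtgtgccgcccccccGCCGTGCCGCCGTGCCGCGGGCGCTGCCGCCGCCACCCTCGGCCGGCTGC
The window had a GC content of 70.7% and 32 CpG dinucleotides, and did not hold CTCCA on either strand.

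The merged peaks made 377 regions in the chromatin genes. All 6 lists shared 117 of them (31%), against 17.4% of 23181 regions of all genes. Where a region had a single peak per list (116 regions), its ends were the same base in all 6 lists in 100 cases (86.2%). Regions present in every aged and in 0 young lists numbered 17 (4.51%), against a background of 5.17%, and lay in 16 genes. The reverse pattern was found in 1 region (0.265%), against a background of 0.600%. Of the 17 regions 13 lay in genes that had a peak in all 6 lists. At equal list length 4 of 277 regions were restricted to aged lists (1.44%), against 318 of 15396 regions of all genes (2.07%). They lay in Kdm5a, Setd7, Smarca4 and Smarca2. Those of Kdm5a, Setd7 and Smarca4 were also restricted in the lists as deposited, while the Smarca2 region had peaks in 2 young lists as deposited.

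The Kdm5a region, chr6:120419400-120419561, had the highest scores of the 17, with 1568.0, 886.6 and 877.3 in aged lists, the 91.2, 87 and 86.5 percentile of each list, and no peak in any young list. A neighbouring region 661 bases upstream, chr6:120418559-120418738, had peaks in all 6 lists. It scored 308.8, 174.6 and 197.0 in aged lists, the 70.2, 56.4 and 59.9 percentile, against 1272.1, 953.6 and 1102.2 in young lists, the 90.4, 90.5 and 90.6 percentile. In each aged list the neighbour thus ranked below the restricted region, while in each young list it was the peak of this stretch. The lists differ in length, so ranks are read within a list and not between the ages.

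A similar pair lay in Chd5. The region restricted to young lists, chr4:152358498-152358619, had no peak in any aged list, against scores of 313.4, 145.5 and 163.3 in young lists. The next region, 1068 bases downstream at chr4:152359688-152359811, scored 729.2 and 879.9 in 2 aged lists, the 84.7 and 86.5 percentile, and had no peak in aged list 1 or in any young list. The table used for gene spans holds no exons, so the exon or intron of each region is not given here. The cause of these differences was not tested.

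**Figure D4:**
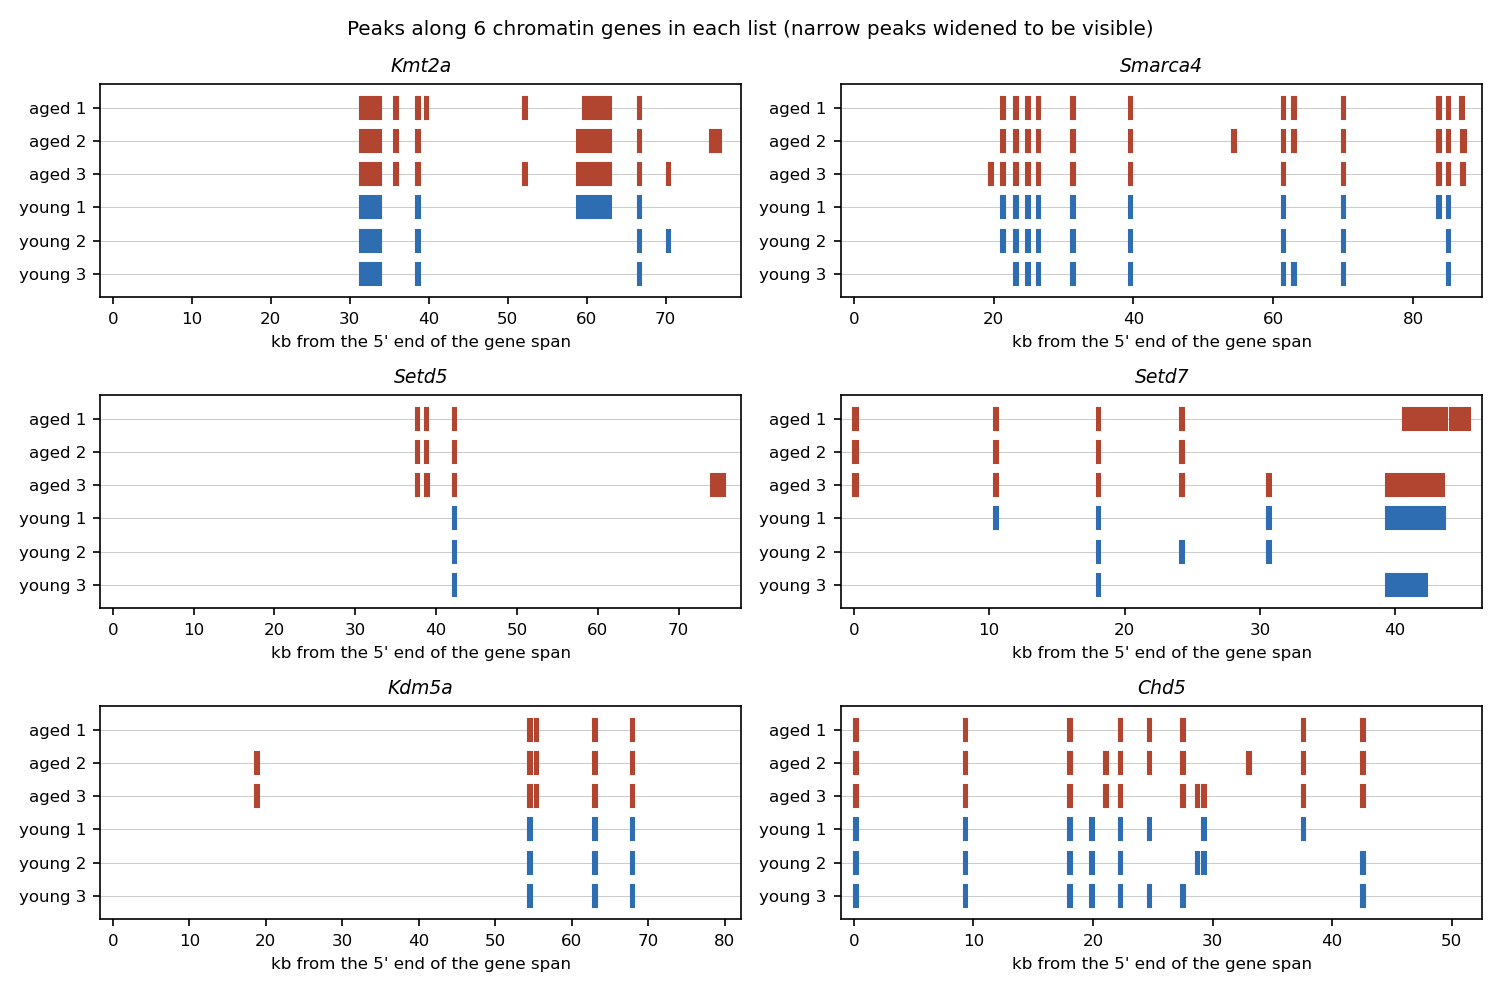
Peaks along the spans of 6 chromatin genes, in kb from the 5′ end, with 1 row per list (aged above young) and 1 block per peak. Kdm5a shows the block at 55.3 kb in the 3 aged lists alone beside the shared one, Setd7 a block at its start in the 3 aged lists alone, and Chd5 a block at 19.9 kb in the 3 young lists alone.

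Other restricted regions had low scores. Smarca4 had one near the end of its span (98.9% of the length) at chr9:21702936-21703651, scoring 154.5, 127.7 and 113.3 in aged lists. Kdm6b had one at chr11:69398508-69399849, near its end as well, scoring 109.7, 173.3 and 107.5. Kat6b had one at chr14:21516626-21517944, scoring 55.5, 55.8 and 270.5, so that aged list 3 stood far above the other two. The regions of Kdm4b, Kmt2a, Arid4b, Setd2 and Smarca5 had mean scores of 120.2, 110.7, 107.7, 101.5 and 87. Setd5 had a pair 918 bases apart, with mean scores of 113.2 and 79.3. The rest lay in Hdac4, Smarcad1, Kat7, Kdm5b and Kdm8. The Kdm4b region was chr17:56389259-56389993 and the Smarcad1 region chr6:65074762-65075150, while that of Kdm8, chr7:125456964-125457008, was the narrowest with 45 bases.

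Within each aged list, peaks of shared regions had a higher median rank than those of restricted ones. Both classes were defined by presence in these same lists, so their ranks are not an independent result. In the 3 aged lists, peaks in regions of all 6 lists had median percentiles of 83.7, 81.5 and 81.4 of their own list, and peaks in the aged-restricted regions had medians of 25.4, 33.5 and 39.7. In the 3 young lists, peaks in regions of all 6 lists had medians of 76.7, 74.3 and 75.7. Over all chromatin gene peaks the medians were 63.2, 61.6 and 61.6 in the aged lists and 63.6, 63 and 59.7 in the young lists, so in each list the set's median peak ranked above the middle of that list. The percentiles of the ages are not compared, because the lists differ in length.

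Peaks at the ends of the span made up a smaller share in the chromatin genes than over all genes, in each of the 6 lists. The first 1000 bases held 11, 11 and 9 of the set's peaks in aged lists (4.2%, 4.45% and 3.53%), against 6 in each young list (3.19%, 3.43% and 3.11%), without overlap (exact permutation p = 0.1, adjusted 0.14). At equal list length these shares were 4.35%, 4.05% and 3.39% in aged lists, against 3.43%, 3.43% and 3.57% in young lists, which overlapped (exact permutation p = 0.4). For all genes the shares in the lists as deposited were 9.36%, 10.3% and 9.1% in aged lists, against 8.18%, 8.69% and 8.75% in young lists. The last 1000 bases held 3.05%, 3.64% and 3.14% in aged lists, against 3.72%, 2.29% and 4.15% in young lists, and overlapped (exact permutation p = 0.9), where all genes had 8.24%, 8.37% and 8.87% in aged lists, against 8.8%, 8.83% and 9.19% in young lists. The bin from 60% to 70% of the span held 16.8%, 15.4% and 17.3% of the set's peaks in aged lists, against 14.9%, 18.3% and 16.1% in young lists. Every list stood above the 9.43% to 10.2% of all genes in that bin. Each list also stood above all genes in every bin from 20% to 50% of the span. From 40% to 50%, for example, the shares were 10.7% against 7.03% in aged list 1, and 8% against 7.37% in young list 2. Spans of this set are longer than average, and the part of span length in these shares was not tested.

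**Figure D5:**
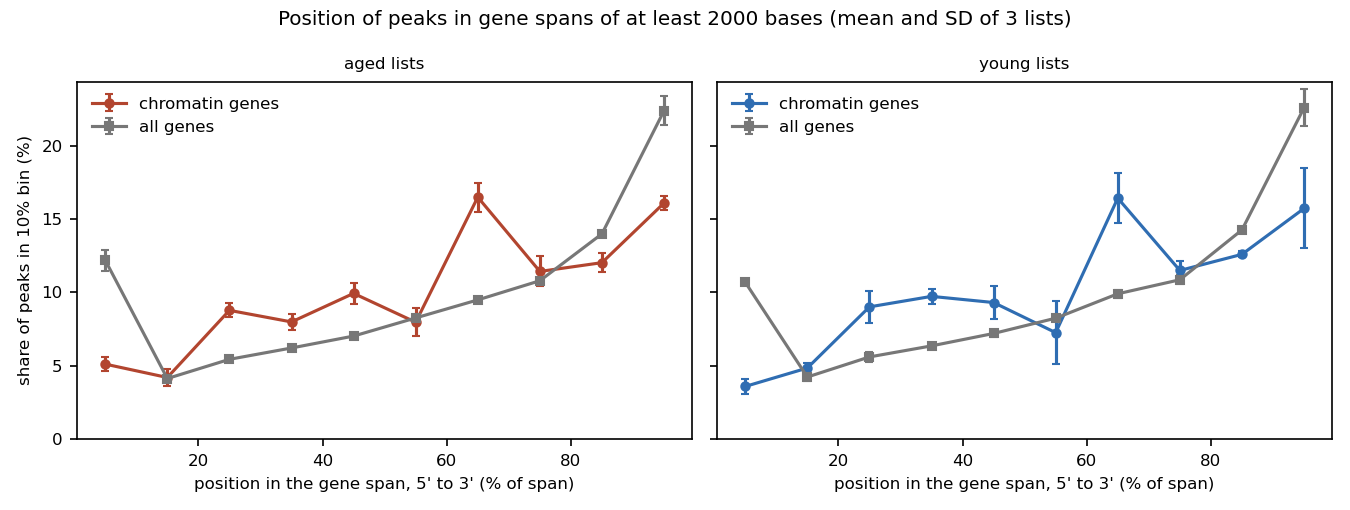
Share of peaks in each 10% bin of the gene span from the 5′ to the 3′ end, in aged lists (left) and young lists (right), for spans of at least 2000 bases. Points are means and bars SD of 3 lists, coloured for chromatin genes and grey for all genes. The chromatin genes stand below all genes in the first and the last bin. They stand above them in the bins from 20% to 50% and from 60% to 70%, at both ages.

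A list of 100 related chromatin genes outside the naming rule, among them other methyltransferases and remodeler or corepressor subunits, gave 259, 229 and 234 peaks in aged lists, against 174, 132 and 178 in young lists, a ratio of 1.49 without overlap (exact permutation p = 0.1, adjusted 0.14). With lists of equal length they held 162, 163 and 149 peaks in aged lists, against 156, 132 and 147 in young lists, which overlapped (exact permutation p = 0.2). Of the 80 with a peak 16 had more peaks in every aged list (20%), against 12% of all genes with a peak, and 1 had more in every young list (1.25%), against 0.887%. Nsd2, a methyltransferase, had 6 in each aged list, against 2, 1 and 2 in young lists. Pbrm1, the PBAF partner of Arid2, had 4, 4 and 3 in aged lists, against 1 in each young list. Baz2b and Ep400, remodeler genes, were also separated by age, with 10, 11 and 9 peaks in aged lists, against 8, 4 and 8 in young lists for Baz2b, and 7, 8 and 7 in aged lists, against 5, 4 and 5 in young lists for Ep400. Dpf1, a neuronal BAF subunit, and Phc2, a Polycomb subunit, had peaks in every aged list and in 0 young lists, which is 2.5% of the 80, against 4.26% of all genes with a peak. Ss18, another BAF subunit, had no peak in any aged list, against 1 in each young list, the single such gene (1.25%), against 0.743% of all genes.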

How the data were processed

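Per the labels' protocols, fragmented total RNA was captured with an m5C antibody, and captured and input RNA were made into directional paired-end libraries. Per the submitters' processing notes, cutadapt 1.9.3 and HISAT2 2.0.4 were used with the build mm10. The authors deposited 1 peak list per captured library and its input, in which each peak has a position, a strand, a numbered name with the word MACS and a score. This deposited score, set by the authors, has a lowest value of 50.00 or 50.01. Here it served to rank or filter the peaks of a list and to order regions for naming. For the caller, neither version nor settings appear in the sources used here. A site spreadsheet named in the labels was not analysed here.

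Peaks were counted for a gene when they overlapped its RefSeq span (GRCm38.p6) by at least 1 base on the same strand. The strand came from the promoter table for 62 of the 82 genes and from the majority of their own peaks for 18, and was unknown for 2 without peaks, Hdac1 and Hdac10. Over all genes 99.65% of unambiguous peaks lay on the annotated strand. Genes with these prefixes on the sex chromosomes fall outside the rule. Lists were compared by two-sided exact permutation tests of the difference in means, with Benjamini-Hochberg adjustment. Calls of genes and regions had no test and are set beside the share over all genes.

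Values are given for genes restricted to 1 age, the 15 largest differences without overlap, the 10 highest mean peak numbers, up to 12 restricted regions, and likewise 3 and 5 related genes, of which 1 is not reported here. Other genes named for their family were chosen after their values were seen, as were the neighbouring regions. The 82 genes, the related list and the marker lists were chosen with earlier results of these data known. No depth is known, so no counting interval is given. Peak assignment was tested on simulated lists. Python 3.11.15, numpy 2.4.6, pandas 2.3.3 and matplotlib 3.10.9 were used.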

Additional observations from a re-analysis of the deposited data

How the results depend on the processing

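Of 269 alternative values, 18 turned in direction, and 17 moved, of which 1 was a difference that became 0 and the others counts that changed by more than 1.5 times or to or from 0. No test here could pass 0.05 under any of them. Differences below are aged minus young. With lists of equal length the difference turned for genes with a peak (-1.67), share of the list (0.0624 percentage points), peaks in the last 1000 bases (0.294 points), score percentile (-1.82), Kat (-1), Hdac (-2) and Chd peaks (-1). Genes restricted to aged lists then numbered 0, genes with more peaks in every aged list 2 and regions restricted to aged lists 4. With peaks from each list's median score upward, the last 1000 bases (0.595) and Hdac (-0.333) turned, 1 gene was restricted to aged lists and 10 had more peaks in every aged list. With scores of at least 100, the last 1000 bases turned (1.24), the Hdac difference was 0, and 1 gene was restricted to aged lists. With peaks on either strand the last 1000 bases (0.0157) and the score percentile (-0.149) turned, and with peaks in 1 span alone the last 1000 bases did (0.243). The cause was not tested.

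Leaving out 1 list at a time gave differences of 3.67 to 6.17 genes with a peak, 64.2 to 73.2 peaks, -0.217 to -0.122 points of share, 0.621 to 1.08 points in the first and -0.656 to 0.274 points in the last 1000 bases, and -1.19 to 0.777 for the score percentile. By family they were 9.33 to 14 (Kmt), 8.83 to 11.3 (Setd), 7.83 to 9.83 (Kdm), 5.67 to 7.17 (Kat), 1.67 to 3.67 (Hdac), 10 to 12.8 (Chd), 10 to 13.5 (Smarc) and 6 to 7.5 (Arid), and 64.7 to 87.7 for related genes. Restricted genes numbered 4 to 5 (aged) and 0 to 1 (young: Kdm3a without young list 3, Setdb2 without young list 2), separated genes 19 to 25 and 0 to 1, and restricted regions 22 to 29 (aged) and 1 to 2 (young), since fewer lists make these patterns easier to meet. With the replicate block, a sign-flip test over 3 same-numbered pairs that cannot go below 0.25, the difference in peaks was 69.3 (exact p = 0.25) and no direction changed. Same-numbered lists of the ages had correlations of 0.0204, 0.0819 and 0.0281 in their deviations over 9020 genes. Differently numbered lists had correlations of -0.0501 to 0.0221, and the values for numbers 2 and 3 lay above that range. All were small, so the numbers were not treated as pairs. Whether same-numbered lists share a batch was not tested. Read depth, unknown here, limits every count.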
